A study of Homo sapiens with 9 samples.

Results

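The genes described are TENM2, TENM3 and TENM4, 3 members of the teneurin family, chosen by name from 20037 protein-coding genes and followed through the H3K9me3 domain lists of 8 libraries. For each gene, the percent of the gene body that lay inside listed domains was computed per library, together with the place of those domains along the gene. TENM1, the fourth family member, was used for comparison. Teneurins are large transmembrane proteins that sit with their carboxy terminus outside the cell. They bind latrophilin receptors (ADGRL1, ADGRL2 and ADGRL3) on the facing cell, and in the nervous system they are known for guiding axons and matching synaptic partners. H3K9me3, trimethylation of lysine 9 on histone H3, marks heterochromatin, and such chromatin can spread over long stretches of DNA that hold few genes.

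The libraries came from hTERT RPE-1, an established human line of retinal pigment epithelial origin immortalised with telomerase. Each line analysed was 1 stable clone overexpressing either mCherry, a red fluorescent protein that served as control, or mCherry joined to lamin B1 (LmnB1), a filament protein lining the inner nuclear membrane. The LmnB1 clones were LmnB1_16 and LmnB1_6, the mCherry clones mCherry_3 and mCherry_4, each with 2 biological replicates, and all 8 libraries were from cells given doxycycline at 0.05 ug/mL for 24 hours. The 1 further sample, an input from untreated wild-type cells, entered only through the input reads that the authors list for each domain. With 2 clones a construct, the construct and the choice of clone cannot be told apart beyond those 2 clones.

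The lists held between 5366 and 11322 domains and covered 319.7 to 646.3 Mb per library. LmnB1_6 replicate 2 stood apart among the LmnB1 libraries, with 356.5 Mb covered, 795 domains of at most 13 kb and 20 domains of 500 kb or more, against 4244 to 7966 and 299 to 308 in the other 3. H3K9me3 reads inside domains ranged from 2855378 in mCherry_4 replicate 1 to 10321442 in LmnB1_16 replicate 1. Depth relative to the input was 0.88 to 1.01 in the LmnB1 libraries and 0.421 to 0.859 in the mCherry libraries, so every LmnB1 library was deeper than every mCherry library on this scale. Counts of the mCherry_3 replicates over 229 domains with the same coordinates agreed within sampling noise (chi-square 246 on 228 degrees of freedom, p = 0.197), at a ratio of chi-square to degrees of freedom of 1.08. In LmnB1_16, over 648 such domains, the ratio was nearly the same, 1.10, and the chi-square test gave p = 0.038. In LmnB1_6 and mCherry_4 the ratios were 1.73 and 1.67. Such agreement could come from close replicates or from 1 library deposited more than once, and these cannot be told apart here. The labels call the mCherry_3 libraries biological replicates, and their domain lists differ. LmnB1_16 is not clearly apart from them in this respect. As a precaution the mCherry_3 pair was counted as 1 sample in every mean ± SD, which gives n = 3 for mCherry. Differences between constructs were taken over all 8 libraries, so they need not equal the difference of the printed means. Expression was not measured, so the cell type could not be checked by its RNA. Of 14 retinal pigment epithelium, epithelial and housekeeping genes, 12 had no listed domain in any library, near the 79.3% of all protein-coding genes of which this holds, and MITF (in LmnB1_6) and OTX2 (in LmnB1_16) were covered in 1 clone each.

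The 3 genes differed widely in coverage. TENM2 had a mean of 29.3% of its body in listed domains over the 8 libraries, TENM3 had 1.26%, and TENM4 had no listed domain in its body in any library. The order TENM2, TENM3, TENM4 held in 6 libraries, and in both mCherry_4 libraries TENM3 and TENM4 were equal at 0. TENM2 exceeded TENM3 by 27.1 ± 11.8 points (SD, n = 7 with the mCherry_3 pair counted once) and was higher in 8 of 8 libraries. The exact sign-flip permutation test, two-sided, gave p = 0.0156 over these 7 values (adjusted over 3 pairs 0.0234), and p = 0.00781 (adjusted 0.0117) over the 8 libraries, the smallest they allow. TENM3 was at or below 3.39% in every library and TENM2 at or above 4.28%. These p-values thus reflect only that TENM2 was the higher gene in each library, and they treat replicates of a clone as independent. With only the highest-scoring 50% of each list the difference fell to 6.14 points and no longer passed (adjusted exact p = 0.117), and with lists cut to equal covered length it was 14.1 points (adjusted exact p = 0.0586). Over the means of the 4 clones the adjusted exact p was 0.188. TENM4 lay 28.5 ± 12.8 points below TENM2 and 1.34 ± 1.42 points below TENM3 (SD, n = 7). Because TENM4 was at 0 throughout, a sign-flip test of these differences would only count the libraries with any domain in the other gene, 8 for TENM2 and 6 for TENM3, and its p is not given. Both pairs with TENM4 are still among the 3 pairs that the adjustment ran over. Stretches without a listed domain may still carry the mark, just under the lists' lowest log2 enrichment over input, 0.6.

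**Figure D1:**
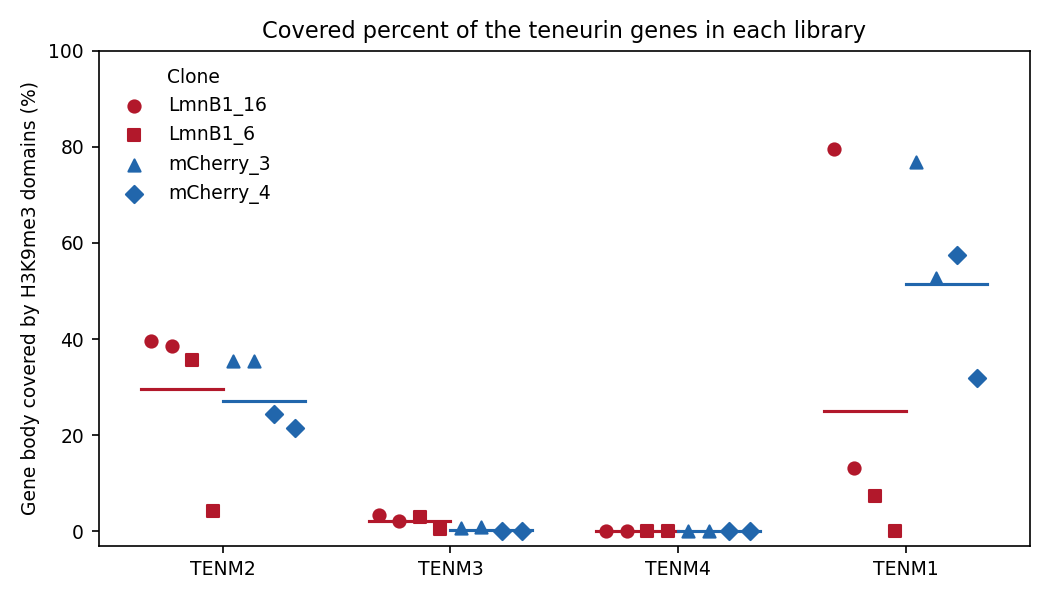
Percent of each teneurin gene body inside listed H3K9me3 domains, 1 point per library, LmnB1 clones in red and mCherry clones in blue, with lines at the group means (LmnB1 n = 4, mCherry n = 3 with the mCherry_3 pair averaged). TENM2 lies between 4.28 and 39.6%, TENM3 at or below 3.39%, and TENM4 at 0 in all 8 libraries.

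The sequence before annotated transcription starts is shown first, because 1 of these windows lies inside the domain at TENM2 and the others lie outside listed domains. Those of TENM2 and TENM3 are internal starts, the 5′ ends of these 2 genes were not analysed here, and the windows are therefore not compared as promoters of the 3 genes. The 250 bases upstream of 4 starts are from RefSeq (GRCh38.p14), read 5′ to 3′ on the gene's strand, with each CG in capitals. The windows are chr5:167072992-167073241 (plus strand, start 94.2 kb into TENM2), chr5:167754679-167754928 (plus strand, 775.9 kb into TENM2), chr4:182143713-182143962 (plus strand, 696.4 kb into TENM3) and chr11:79441031-79441280 (minus strand, at the 5′ end of TENM4).
TENM2 start at 94.2 kb: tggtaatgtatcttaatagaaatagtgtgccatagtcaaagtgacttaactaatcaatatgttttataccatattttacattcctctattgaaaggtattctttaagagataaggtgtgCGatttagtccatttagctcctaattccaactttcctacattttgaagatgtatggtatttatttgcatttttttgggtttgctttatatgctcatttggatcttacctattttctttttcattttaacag
TENM2 start at 775.9 kb: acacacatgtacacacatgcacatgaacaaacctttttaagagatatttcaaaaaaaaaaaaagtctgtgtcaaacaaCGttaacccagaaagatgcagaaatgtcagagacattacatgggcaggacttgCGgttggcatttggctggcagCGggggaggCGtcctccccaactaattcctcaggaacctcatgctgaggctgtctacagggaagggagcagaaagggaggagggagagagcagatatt
TENM3 start at 696.4 kb: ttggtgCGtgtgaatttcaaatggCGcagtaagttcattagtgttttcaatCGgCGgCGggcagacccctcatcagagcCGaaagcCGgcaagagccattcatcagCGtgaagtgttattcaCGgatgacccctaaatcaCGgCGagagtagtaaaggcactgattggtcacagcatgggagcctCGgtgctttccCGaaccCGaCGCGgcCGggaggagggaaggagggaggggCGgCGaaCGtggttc
TENM4 start at 0 kb: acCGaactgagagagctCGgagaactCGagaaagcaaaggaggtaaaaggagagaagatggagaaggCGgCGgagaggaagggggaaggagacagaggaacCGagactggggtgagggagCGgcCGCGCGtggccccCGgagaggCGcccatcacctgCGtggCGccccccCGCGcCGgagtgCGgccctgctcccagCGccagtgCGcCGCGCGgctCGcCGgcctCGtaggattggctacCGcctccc
The first TENM2 window held 1 CG and 29.2% G or C, and 1.15% of the 35116 promoters in the table had a lower GC content. It lay wholly inside a domain in 5 libraries, namely both LmnB1_16, LmnB1_6 replicate 1 and both mCherry_3. In the other 3 the nearest domain was 69.2 kb (LmnB1_6 replicate 2), 20.2 kb (mCherry_4 replicate 1) and 1.2 kb (mCherry_4 replicate 2) away. The second TENM2 window held 4 CG and 46.4% GC, the TENM3 window 20 CG and 56.8%, and the TENM4 window 27 CG and 69.2%, and none of these was covered in any library. A further TENM3 start at 1001.4 kb, with 35 CG and 77.2% GC in its window, was not covered either. CG was searched on both strands, where it reads the same. It occurred in 93.9% of all promoters, with a median of 11 per window. Among the 697 promoters at least 50% covered in all 8 libraries the median was 2 CG and 42.4% GC, against 13 CG and 59.6% in the 30795 at 0 in all 8. The window at 94.2 kb ends in a pyrimidine-rich stretch followed by aacag, as introns commonly end, so its base content may not be that of a promoter. Whether transcription begins at any of these starts in RPE-1 was not measured here.

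TENM2 spans chr5:166979029-168264157 on the plus strand, 1285.1 kb, and the domains lay in its 5′ part. In replicates 1 and 2, domains covered 39.6% and 38.6% of the gene in LmnB1_16 and 35.6% and 4.28% in LmnB1_6. In mCherry_3 they covered 35.5% and 35.4%, and in mCherry_4 24.4% and 21.4%. LmnB1_6 replicate 2 was the lowest of all 8 and its sister replicate was the third highest, and the ranges of the groups overlapped. The LmnB1 mean was 29.5% ± 16.9 (SD, n = 4) and the mCherry mean 27.1% ± 7.40 (SD, n = 3). In limma over all 8 libraries with the clone as a random block, the difference was 0.37 points (SE 11.0, adjusted p = 1.0), and the exact permutation test gave p = 0.943. Without LmnB1_6 replicate 2 the difference was 8.45 points (exact permutation p = 0.114), and after subtracting each library's mean over the tested genes it was -6.33 points. With lists cut to equal covered length it was 11.5 points (limma adjusted p = 0.80). TENM2 was the 1 of the 3 genes that reached the mean of 5% needed to enter limma. Across the 2304 genes tested, 5 (0.217%) were higher and 2 (0.0868%) lower in LmnB1, and TENM2 was not among them.

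Within TENM2, divided into 10 equal parts from the 5′ end, every listed domain fell in parts 1 to 4, and parts 5 to 10 were at 0 in all 8 libraries. The mean coverage over libraries was 78.6% in part 1, 84.1% in part 2, 82.2% in part 3 and 48.6% in part 4. The last covered base lay 509 and 496 kb from the 5′ end in LmnB1_16, 464 and 328 kb in LmnB1_6, 456 and 473 kb in mCherry_3, and 447 and 322 kb in mCherry_4. The 3′ edge thus lay between 322 and 509 kb, and its positions overlapped between the constructs. Merged over libraries, the domains formed 1 region, chr5:166973001-167488000, of 515 kb. In 1 kb bins, 509 of 1286 bins (39.6%) were covered in at least 1 library and 36 in all 8, while 198 were covered in all 7 libraries other than LmnB1_6 replicate 2. No bin was specific to a construct, in the sense of lying in all 4 of its libraries and in none of the other 4.

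**Figure D2:**
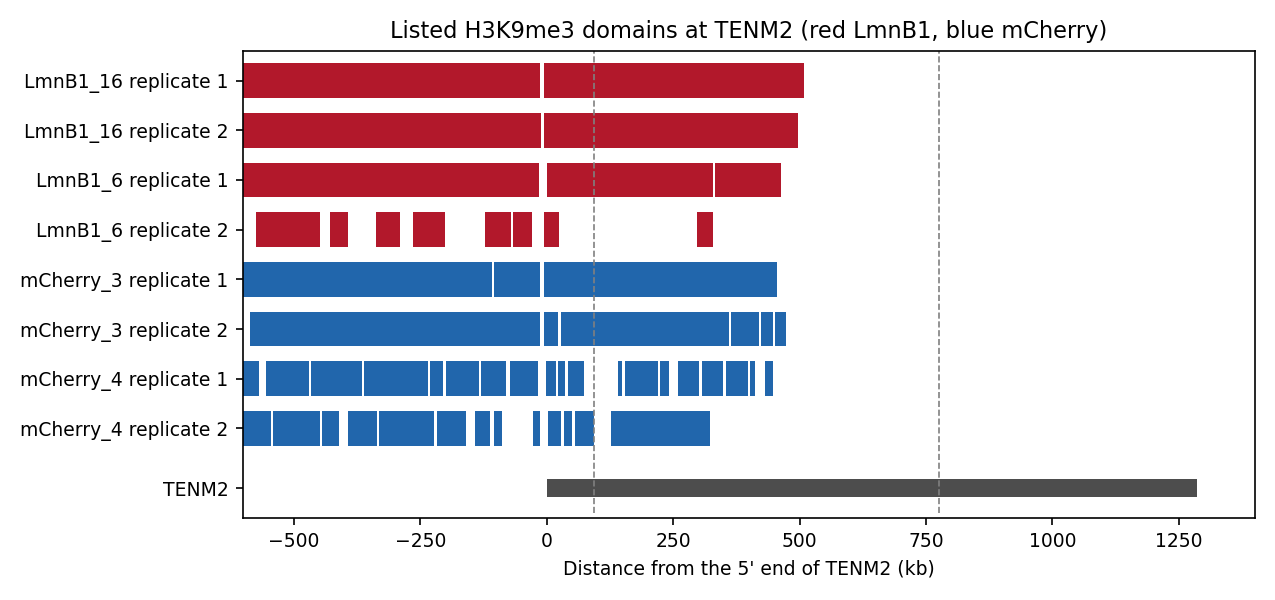
Listed domains in each library along TENM2 and its flanks, in kb from the 5′ end of the gene, with LmnB1 libraries in red, mCherry libraries in blue, the gene body in grey and dashed lines at the annotated starts at 94.2 and 775.9 kb. Domains end between 322 and 509 kb in all 8 libraries, and a short interval just before the 5′ end is uncovered in all of them.

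The region was split in different ways among the libraries. It was listed as 1 domain in both LmnB1_16 libraries and in mCherry_3 replicate 1, as 2 domains in both LmnB1_6 libraries, as 5 in mCherry_3 replicate 2, and as 11 and 4 in mCherry_4 replicates 1 and 2. The longest stretch inside the gene was 509 kb in LmnB1_16 replicate 1 and 30 kb in LmnB1_6 replicate 2. H3K9me3 reads in these domains numbered 5852 and 5661 in mCherry_3, 1963 and 3222 in mCherry_4, 8625 and 8214 in LmnB1_16, and 6595 and 706 in LmnB1_6. The pooled log2 enrichment over input was 0.86 and 0.82 in mCherry_3, 0.80 and 0.68 in mCherry_4, 1.16 and 0.93 in LmnB1_16, and 0.84 and 0.71 in LmnB1_6. By the authors' score, the median TENM2 domain of a library lay between percentiles 26.6 and 67.3 of its own list, so these were not the strongest domains. The lowest enrichments, in mCherry_4 replicate 2 and LmnB1_6 replicate 2, belonged to the libraries with the lowest median log2 over all their domains (0.72 and 0.70). The part of this library-wide level in the breaks of the region was not tested.

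The overlap of TENM2 bins between libraries, as the Jaccard index (shared bins over bins covered in either), had a median of 0.727 for the 4 replicate pairs, 0.629 for the 8 pairs of different clones with the same construct and 0.623 for the 16 pairs of different constructs. The ranges were 0.118 to 0.974, 0.108 to 0.923 and 0.116 to 0.97 in that order, and they overlapped almost wholly. The low ends all came from LmnB1_6 replicate 2, whose pairs lay between 0.108 and 0.166. Among pairs without it the lowest values were 0.527, 0.587 and 0.540 in the same order. Of 14 windows of 100 kb over TENM2, 6 entered limma and none passed, with a lowest adjusted p of 0.993 and a lowest unadjusted p of 0.273. Across the genome 3.26% of windows had an unadjusted p under 0.05, and limma called 57 of 9832 windows (0.58%) higher and 3 (0.0305%) lower in LmnB1. All 4 LmnB1 libraries lay above all 4 mCherry libraries in 3.59% of windows. The window at the 3′ edge of the region, chr5:167400001-167500000, was covered to 35% and 45% in mCherry_3, 16% and 0% in mCherry_4, 88% and 75% in LmnB1_16, and 43% and 0% in LmnB1_6. LmnB1_6 and mCherry_4 each had 1 replicate at 0, and the groups overlapped. The means were 51.5% ± 39.2 (SD, n = 4) in LmnB1 and 18.7% ± 20.1 (SD, n = 3) in mCherry. The limma difference over all 8 libraries was 27.5 points (SE 23.2, adjusted p = 0.993).

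The region at TENM2 was the end of a longer run of domains. The next protein-coding gene upstream, MAT2B, a regulatory subunit of methionine adenosyltransferase, lies 3459.7 kb away, and 60.8 to 95.8% of the interval was covered. In the 500 kb before TENM2, coverage was 97.6% and 98.6% in mCherry_3, 90.6% and 73.6% in mCherry_4, 98.6% and 98.6% in LmnB1_16, and 97.0% and 58.4% in LmnB1_6. In all 8 libraries this run was broken just before the gene. A stretch of 6000 bp, chr5:166967001-166973000, which ends about 6 kb before the 5′ end, was free of domains in every library, with gaps of 7 to 23 kb around it. This was not the only break shared by all 8. Farther upstream, domains ended at chr5:166140000 or 166141000 and began again between 166145001 and 166148001 in every library. The run had breaks in other places too, as in both mCherry_4 libraries. On the other side no domain was listed in the 500 kb after TENM2 in any library. WWC1, 27.5 kb downstream and known as KIBRA, a scaffold of Hippo signalling, was at 0 in all 8.

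Of the 9 genes annotated inside TENM2, 3 lay in the covered part, all of them long non-coding RNAs. TENM2-AS2, at 317.4 to 324.3 kb, was the 1 nested gene with coverage in all 8 libraries, at 100% in 7 and 65.9% in mCherry_4 replicate 2. LOC101927908, at 185.9 to 189.4 kb, was covered in 7 libraries, all except LmnB1_6 replicate 2. LOC124901126, at 428.7 to 439.1 kb, was covered in 6. The other 6, including TENM2-AS1 and MIR12125 near the 3′ end, were at 0 throughout.

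TENM3 spans chr4:181447613-182803024 on the plus strand, 1355.4 kb, and carried a few short domains in place of a long one. Coverage was 0.59% and 0.81% in mCherry_3, 0% and 0% in mCherry_4, 3.39% and 2.07% in LmnB1_16, and 2.88% and 0.37% in LmnB1_6. Of the LmnB1 libraries, 3 lay above every mCherry library, and LmnB1_6 replicate 2 lay below both mCherry_3 libraries, so the groups overlapped. The means were 2.18% ± 1.32 (SD, n = 4) and 0.234% ± 0.405 (SD, n = 3). The difference over all 8 libraries was 1.83 points (exact permutation test, two-sided, p = 0.0857). TENM3 fell below the 5% mean needed for limma. In limma without that filter its adjusted p was 0.769, where 8 of 4140 genes (0.193%) were called. After subtracting each library's mean over the tested genes, which was 6.70 points higher in LmnB1, the difference was -4.88 points. With TENM3 at or below 3.39% in every library, that sign was fixed in advance. Without LmnB1_6 replicate 2 the groups no longer overlapped and the difference was 2.43 points (exact permutation p = 0.0286, the smallest the remaining libraries allow). Over the same 7 libraries, 496 of the 4140 genes with any coverage (12%) had their LmnB1 libraries above every mCherry library, against 73 (1.76%) with all 8 libraries. Of the 2304 genes with a mean of at least 5%, all 4 LmnB1 libraries were above all 4 mCherry libraries in 62 (2.69%) and below them in 9 (0.391%). With only domains of at least 10 kb the TENM3 difference was 0.42 points (exact permutation p = 0.371). The number of short domains in a list moved with the TENM3 result, where short means at most 13 kb, the length of the longest TENM3 region. Domains of at most 13 kb numbered 7966, 4244 and 4415 in the 3 LmnB1 libraries that were high at TENM3, against 795 in LmnB1_6 replicate 2, 2529 and 2378 in mCherry_3, and 1070 and 1448 in mCherry_4. Their part in the result was not tested. Depth relative to input separated the constructs, and was 0.902 in LmnB1_6 replicate 2 and 0.88 in LmnB1_16 replicate 1. H3K9me3 reads inside domains were 4467294 in LmnB1_6 replicate 2, against 9029907 to 10321442 in the other LmnB1 libraries. They were 6959349 and 6869411 in mCherry_3, and 2855378 and 3840496 in mCherry_4. The part of depth in the TENM3 result was not tested.

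The 22 TENM3 domains of the 8 libraries merged into 8 regions of 4 to 13 kb, 53 kb in all, between 179.4 and 967.4 kb from the 5′ end. Of these regions, 6 were listed in LmnB1 libraries only, 2 in both constructs and 0 in mCherry only, and 2 were seen in a single library. Of all 7145 merged regions of at most 13 kb in the genome, 70.1% were listed in LmnB1 libraries only and 5.92% in mCherry libraries only, so the split at TENM3 was near that of short regions in general. The limit of 13 kb was taken from the TENM3 regions themselves. The authors' log2 enrichment of the single domains ran from 0.61 to 1.97 with a median of 1.25, above the median of 0.82 for the 27 TENM2 domains, which were 9 to 515 kb long. These 2 groups of domains share libraries and a threshold, and the difference is given as a description. Within their lists the median TENM3 domain ranked from percentile 1.4 in mCherry_3 replicate 2 to percentile 92.9 in LmnB1_6 replicate 2.

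**Figure D3:**
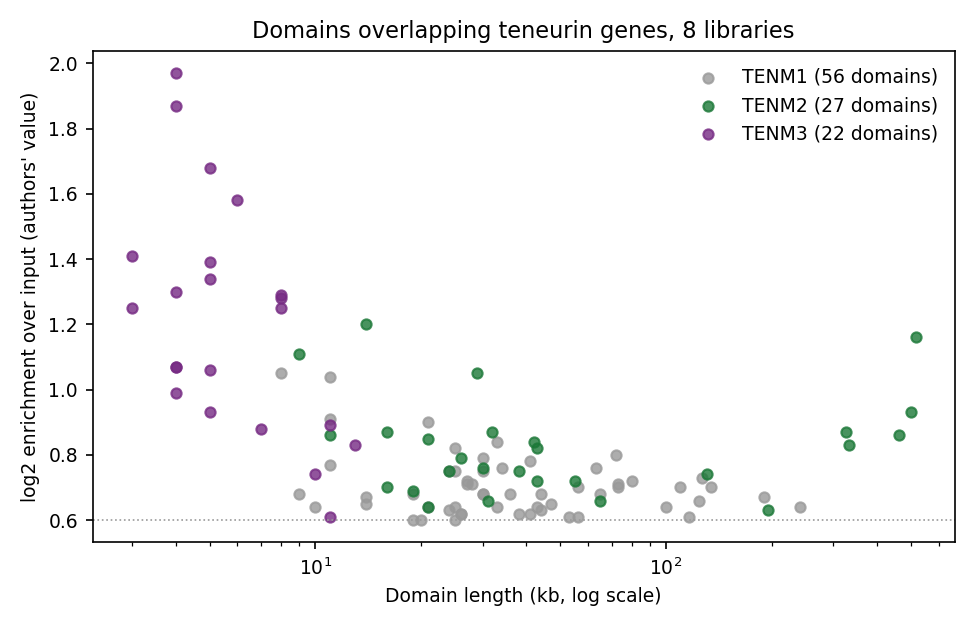
Length of each listed domain overlapping TENM1, TENM2 or TENM3 (kb, log axis) against the authors' log2 enrichment over input, 1 point per domain over all 8 libraries, with a dotted line at 0.6. TENM3 domains are 3 to 13 kb long and reach 1.97, while TENM2 domains run up to 515 kb and end at 1.20.

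The region chr4:181926001-181934000, 478.4 to 486.4 kb into TENM3, was the 1 TENM3 region listed in all 4 LmnB1 libraries. It was covered to 62.5% in LmnB1_16 replicates 1 and 2, 87.5% and 62.5% in LmnB1_6, and 0% in all 4 mCherry libraries. The LmnB1 domains there held 111, 101, 113 and 84 H3K9me3 reads against 48, 48, 65 and 49 input reads, with log2 enrichments of 1.39, 1.06, 0.88 and 0.93. It was therefore covered by at least 50% in every LmnB1 library and by at most 10% in every mCherry library, as were 25 of 12058 merged regions of the genome (0.207%) and 14 of the 7145 of at most 13 kb (0.196%). The reverse pattern occurred in 0 of 12058. The H3K9me3 reads of mCherry libraries over this region are not in their lists, so no count test was possible, and the 8 TENM3 regions were not tested one by one.

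Another region, chr4:182116001-182124000 at 668.4 to 676.4 kb, was covered to 100% in both LmnB1_16 libraries and LmnB1_6 replicate 1, and to 0% in the remaining 5. It held 137, 157 and 144 reads against 64 input reads, at log2 enrichments of 1.28, 1.29 and 1.25. Its 3′ edge lay 20 kb before the CpG-rich start at 696.4 kb printed above. The 2 regions shared by the constructs were chr4:181719001-181726000, with the highest enrichments of the gene (1.58, 1.68 and 1.97 in 3 LmnB1 libraries and 1.87 in mCherry_3 replicate 1), and chr4:182023001-182036000, the longest, with 0.74 to 0.89 in 3 LmnB1 libraries and 1.07 and 0.61 in mCherry_3. The 1 TENM3 window of 100 kb that entered limma, out of 15, had an adjusted p of 0.993. None of the 10 genes nested in TENM3, among them TENM3-AS1, which spans the start at 696.4 kb, and MIR1305, was covered in any library.

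**Figure D4:**
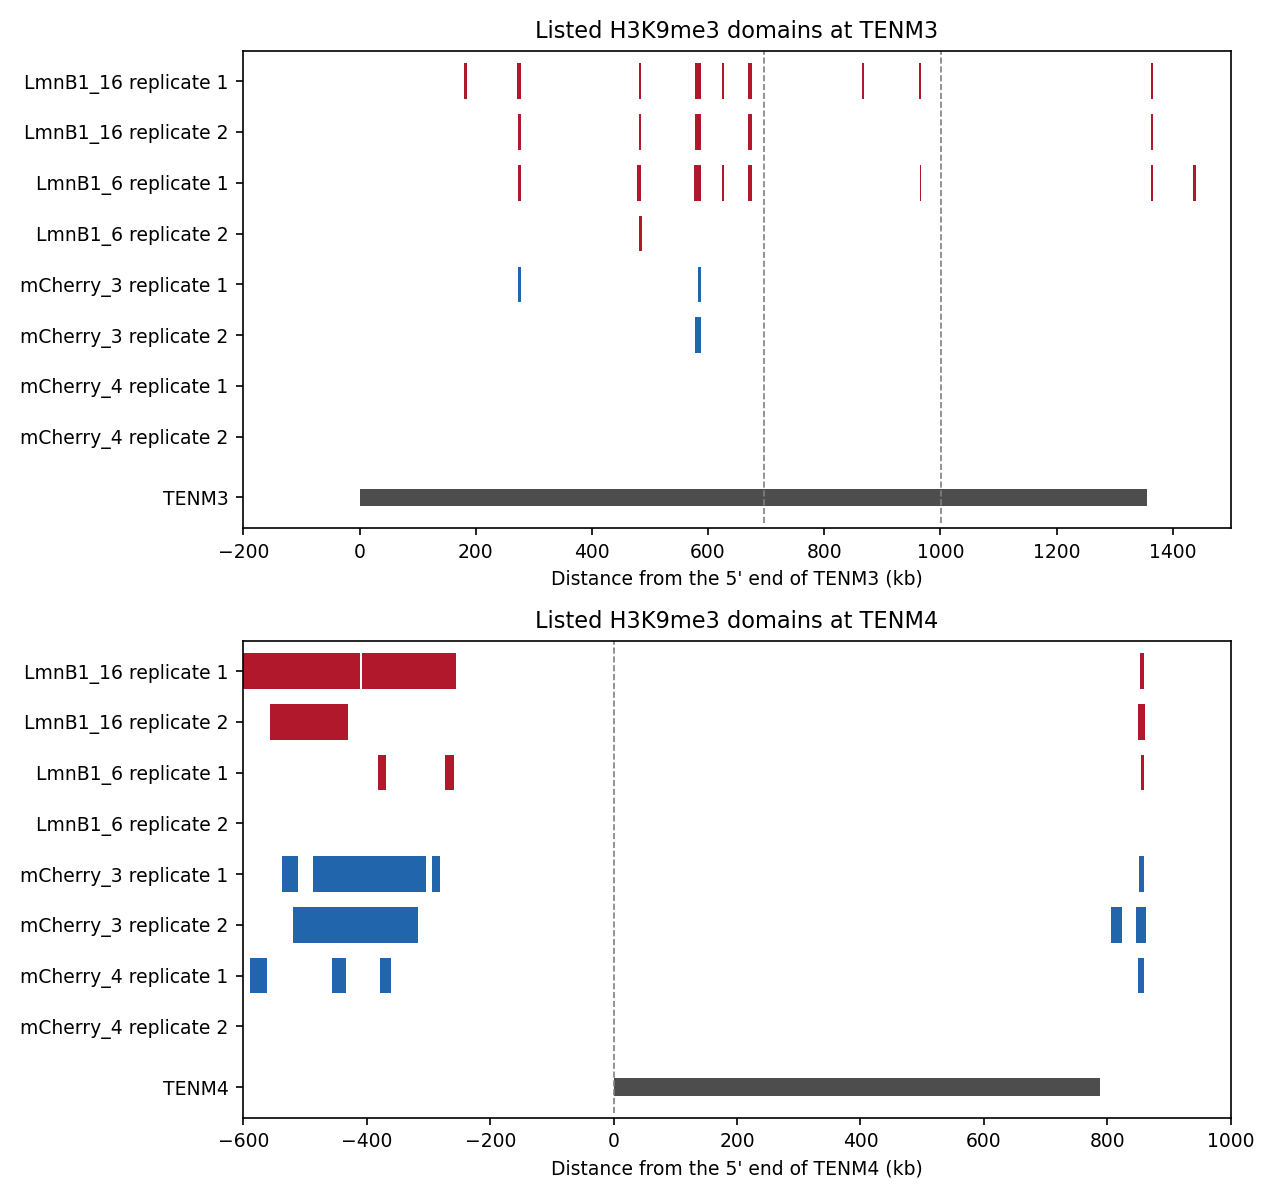
Listed domains in each library along TENM3 (upper panel) and TENM4 (lower panel), in kb from the 5′ end of each gene, with LmnB1 libraries in red, mCherry libraries in blue, gene bodies in grey and dashed lines at annotated starts. TENM3 shows 8 short regions, 6 of them in LmnB1 libraries only, and the TENM4 body is empty in all 8 libraries with domains on both sides.

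TENM4 spans chr11:78652829-79441030 on the minus strand, 788.2 kb, and no library listed a domain within it. None of its 9 windows entered limma, and its 4 nested genes, including MIR708 and MIR5579, were at 0. Domains approached from both sides. Past the 3′ end, 6 of 8 libraries listed a domain of 5 to 15 kb about 847 to 862 kb from the 5′ end, with log2 enrichments of 0.77 to 1.86, and neither LmnB1_6 replicate 2 nor mCherry_4 replicate 2 did. Upstream, the nearest domain was 255 and 431 kb from the 5′ end in LmnB1_16, 258 and 807 kb in LmnB1_6, 282 and 317 kb in mCherry_3, and 360 and 819 kb in mCherry_4. LmnB1_6 and mCherry_4 each had a near and a far replicate, and the distances overlapped between constructs. Beyond it lay longer domains, such as 1664 kb in LmnB1_16 replicate 1 and 1672 kb in mCherry_3 replicate 2. The neighbours NARS2, mitochondrial asparaginyl-tRNA synthetase, 78.0 kb downstream, and FAM181B, 3288.9 kb upstream, were at 0 in all 8 libraries.

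TENM2, TENM3 and TENM4 shared 1 feature of position. Each had a protein-coding gene near its 3′ end, at 27.5, 87.1 and 78.0 kb in that order, and none for over 3 Mb before its 5′ end. The interval upstream of TENM3, 4005.2 kb up to AGA, the lysosomal aspartylglucosaminidase, was covered to 0 to 2.4% across libraries. The interval upstream of TENM4 was covered to 49.6 to 88.6%, and that upstream of TENM2 to 60.8 to 95.8%. The 3 gene-poor intervals thus differed, with dense domains before TENM2 and TENM4 and almost none before TENM3, and the dense run entered the gene only at TENM2. Among 315 protein-coding genes of at least 500 kb, 10 (3.17%) had such a gap of 3 Mb or more on a side, a limit set after the distances were seen. Their median mean coverage was 55.9%, against 2.81% in the other 305, and 1 of the 10, TENM4, was at 0 in all 8 libraries. TENM2, TENM3 and TENM4 are themselves among the 10, and all 3 lay below that median, at 29.3, 1.26 and 0%.

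Set against these long genes, TENM2 was in the upper part and TENM3 and TENM4 in the lower. Mean coverage exceeded that of TENM2 in 102 of the 315 genes and that of TENM3 in 200, and the median was 3.10%. TENM4 was 1 of 28 (8.89%) at 0 in all 8 libraries, and 1 of 3 at 0 among the 129 genes at least as long as itself. By root mean square difference over the 8 libraries, among 1399 genes of at least 200 kb, those nearest to TENM2 were ELMO1 (6.39 points), CELF2 (7.43) and ZFHX3 (8.45). Those nearest to TENM3 were DOCK2 (0.391 points), FAF1 (0.424) and SPIRE1 (0.459).

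**Figure D5:**
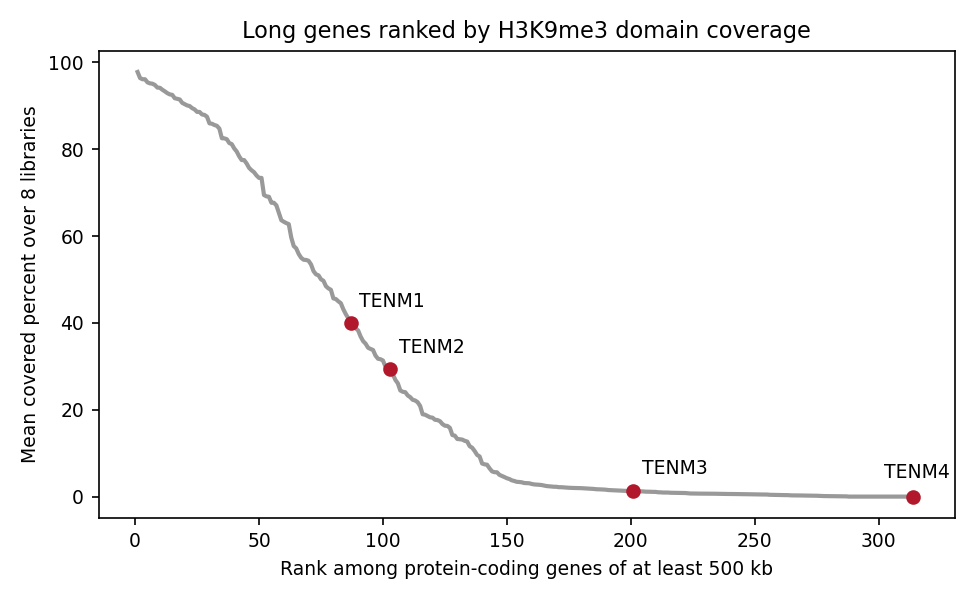
Mean covered percent over 8 libraries of the 315 protein-coding genes of at least 500 kb, ranked from highest to lowest (grey line), with the teneurin genes as red points. TENM1 and TENM2 lie on the slope at 39.9 and 29.3%, TENM3 in the flat tail at 1.26% and TENM4 at 0.

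TENM1, at chrX:124375903-125204312 on the minus strand, had the widest range over libraries of the 4 family members. It was covered to 76.9% and 52.7% in mCherry_3, 57.6% and 31.9% in mCherry_4, 79.6% and 13.2% in LmnB1_16, and 7.36% and 0% in LmnB1_6. LmnB1_16 replicate 1 was the highest of all libraries and the other 3 LmnB1 libraries were the lowest. The means were 25.0% ± 36.8 (SD, n = 4) in LmnB1 and 51.4% ± 17.3 (SD, n = 3) in mCherry. The limma difference over all 8 libraries was -29.7 points (SE 25.0, adjusted p = 0.912, exact permutation p = 0.229). Unlike TENM2, it was covered in 9 of its 10 equal parts, and the one at the 3′ end was at 0 in all 8 libraries. Its 56 domains had a median log2 enrichment of 0.68, close to the authors' cut. The 1 kb bins covered in all 8 libraries numbered 0 in TENM1 and 36 in TENM2. With no TENM1 domain in LmnB1_6 replicate 2, that 0 was fixed in advance. Bins covered in all 7 other libraries numbered 0 in TENM1 and 198 in TENM2.

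The binding partners of the teneurins and the partners of those were covered in an uneven way. Of 10 such genes, 5 were at 0 in all 8 libraries, namely ADGRL1, FLRT1, FLRT2, UNC5A and UNC5B. Of all protein-coding genes, 79.3% were at 0 in all 8. Among the latrophilins, ADGRL3 was covered to 82.2% and 91.0% in mCherry_3, 84.5% and 62.2% in mCherry_4, 98.9% and 98.5% in LmnB1_16, and 70.4% and 39.1% in LmnB1_6, while ADGRL2 had 0.73% in LmnB1_16 replicate 1 alone. The ADGRL3 groups overlapped, with a limma difference of -3.27 points (adjusted p = 1.0). FLRT3, a ligand of latrophilins, was covered to 100% in all 8. UNC5D, a receptor of the FLRT proteins and of netrin, had a mean of 69.2% and a limma difference of -10.4 points (adjusted p = 0.938), and UNC5C had 1.29%, 1.04% and 1.04% in 3 LmnB1 libraries and 0 in the other 5. Of the 3 partners tested in limma, 0 were higher and 0 lower, and 0 had an unadjusted p under 0.05. FLRT3, at 100% throughout, showed no difference, and the median of the 3, -3.27 points, is the ADGRL3 value itself (SE 16.85). It therefore does not set the partners apart from the median of 3.73 points over all 2304 genes tested.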

How the data were processed

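H3K9me3 was profiled by Cut&Run with the antibody ab8898 in 8 libraries of hTERT RPE-1 clones, per the labels' protocols. The authors deposited 1 list of domains per library, called without pooling replicates. The build is GRCh38 (hg38), and deepTools, DESeq2, DiffBind 3.0.15 and SICER are named without roles, per the submitters' processing notes. The aligner was not given in the sources used here. Per domain, the deposited values are 2 counts (H3K9me3 and input reads), a p-value with its adjusted form, a log2 enrichment over input by the authors, and a score by the authors that is the same log2 value scaled up. Starts fall on steps of 1000 bp and all log2 values lie above 0.6.

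From the lists, the percent of bases inside domains was computed for each gene body (RefSeq, GRCh38.p14, with no exons), for 10 equal parts of it, for 1 kb bins and for 100 kb windows, with positions 1-based. Counts exist only for a library's own domains, so no count model was run, and an unlisted region has no depth or interval. The limma fit (limma 3.58.1, R 4.3.3) took genes and windows whose mean over libraries reached 5%, with the clone as a random block (consensus correlation 0.367 for genes) and Benjamini-Hochberg at 0.05 over all 2304 genes or 9832 windows. Single genes were also compared by an exact two-sided permutation test over 70 assignments of libraries, whose smallest p is 0.0286, or 0.333 over the 6 assignments of clones. Gene pairs were compared by an exact sign-flip test within libraries. These tests treat replicates of a clone as independent. Depth relative to input is the constant that links the 2 counts of a domain to its log2 value. The functions were tested on simulated data. Software was matplotlib 3.10.9, scipy 1.17.1, pandas 2.3.3, numpy 2.4.6 and Python 3.11.15.

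The genes and lists were chosen with earlier results of these data known. Named besides the 3 genes are TENM1, 10 binding partners of the family and of latrophilins, the nearest protein-coding neighbours, and the 3 genes of at least 200 kb with the nearest coverage profile. Nested genes and promoter windows were added because they lie in the 3 genes. Samples with the same replicate number deviated together with correlations of -0.025 to 0.099 over 6 pairs, so the numbers were not used to pair them.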

Additional observations from a re-analysis of the deposited data

Results flagged for a closer look

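Values of 3 genes in single libraries stood apart from the rest of their group of 4, by a gap over range above Dixon's 95% limit for 4 samples, which chance exceeds in about 1 of 20 groups; 12 groups were examined. TENM2 was covered to 4.28% in LmnB1_6 replicate 2 (gap over range 0.888), below the other 3 LmnB1 libraries, and that library also had the smallest covered length of its group, 356.5 Mb. TENM1 was covered to 79.6% in LmnB1_16 replicate 1 (gap over range 0.835), above the other 3 LmnB1 libraries. ADGRL2 had 0.73% in LmnB1_16 replicate 1 and 0 in the other 3 LmnB1 libraries (gap over range 1.0). With 3 values at 0 the gap over range is 1.0 for any value above 0. The limit is then passed by construction, and the 1 of 20 does not hold for ADGRL2.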

How the results depend on the processing

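The TENM2 difference between constructs (0.37 points) passed no test under any of its 18 alternatives, and its sign turned in 6 of them. It was -0.72 points with domains under 10 kb apart joined, -6.33 points after subtracting each library's mean over genes, and -5.90 to 8.45 points when 1 library was left out. It rose to 7.20 points with the highest-scoring 50% of each list (exact permutation p = 0.886). With lists cut to equal covered length it rose to 11.5 points (exact permutation p = 0.343). The 7.20 points depended on where the 50% cut fell. The TENM2 domain of LmnB1_16 replicate 1 lay at percentile 50.6 of its list and was kept. Those of LmnB1_16 replicate 2 and mCherry_3 replicate 1, each at percentile 46.8, were dropped. The TENM2 domains of LmnB1_6 replicate 1 also lay below the cut. The limma adjusted p ranged from 0.80 to 1.0 over the settings that kept all libraries. For TENM3 (1.83 points) the sign turned only after subtracting the library mean (-4.88 points), where it could not have stayed positive. Leaving out 1 library gave 1.42 to 2.43 points. The TENM3 difference was 0.424 points with only domains of at least 10 kb, and 1.20 both with the highest-scoring 50% and with equal covered length. It passed the exact permutation test only without LmnB1_6 replicate 2. TENM4, at 0, moved to -6.70 points after subtracting the library mean and to -0.683 points with 100 kb added on each side. The mean over all tested genes was itself 6.70 points higher in LmnB1, so the subtracted values are relative to that shift. With TENM3 at or below 3.39% and TENM4 at 0 in every library, both had to come out negative. No conclusion is drawn from their subtracted values. None of the 100 kb windows of the 3 genes passed limma under any of 17 alternatives.

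TENM2 minus TENM3 no longer passed the sign-flip test with the highest-scoring 50% of each list (6.14 points). Nor did it with lists cut to equal covered length (14.1 points). In the same settings TENM2 minus TENM4 was 6.89 and 14.9 points, and TENM3 minus TENM4 was 0.747 points in both. TENM3 minus TENM4 was 0.415 points with only domains of at least 10 kb, and 0.959 to 1.44 points without 1 library. With the mCherry_3 pair averaged, a setting chosen after the data were seen, it was 1.34 points. A sign-flip test of the pairs with TENM4, which is at 0 throughout, would count only libraries with any domain in the other gene. No outcome of that test is therefore given for them. The cause of the smaller differences was not tested. Leaving out 1 library gave 26.9 to 31.5 points for TENM2 minus TENM3, which still passed. It gave 27.9 to 32.9 points for TENM2 minus TENM4.

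A fit with the replicate block (the replicate number as a term) left the TENM2 difference at 0.37 points (limma adjusted p = 1.0), TENM3 at 1.83 and TENM4 at 0 points, and 0 windows called (lowest adjusted p 0.998). The lists limit all of these values, since a region under the authors' lowest enrichment has no count.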
